A study of Drosophila melanogaster with 4 samples.

Results

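The genes described here are the proteasome subunit genes of Drosophila melanogaster, taken as every gene whose Release 6 symbol starts with Prosalpha, Prosbeta, Rpn or Rpt followed by a number. The rule found 48 genes among 17445 named genes or joint loci. They divide into 25 genes of the 20S core, 14 of the 19S base and 9 of the 19S lid. Ribosome footprints, the short mRNA fragments that ribosomes shield from nuclease, were counted in 4 ovary libraries, 2 of wildtype and 2 of RpS5b mutant animals. RpS5b is a gene for ribosomal protein S5 that has a paralog, RpS5a, and the labels name neither the allele nor how many animals a library holds. All ovaries were dissected by hand 48 hours after eclosion, and per the labels the control was cleared of egg chambers from stage 10 to stage 14. A count reflects both how much of an mRNA was present and how densely ribosomes occupied it, and the values below do not separate these.

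The proteasome is the protease that degrades proteins tagged with ubiquitin. Its core is a barrel of stacked rings, with outer alpha rings that gate the entrance and inner beta rings that hold the catalytic sites. A regulatory cap sits on the barrel. The base of the cap contains a ring of Rpt ATPases that unfold substrates, and the lid carries the enzyme that removes ubiquitin. Late oogenesis and the maternal-to-embryonic transition are known to depend on regulated protein turnover, and the ovary loads proteasomes into the egg.

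The libraries held 1053514 and 1738157 footprints on protein-coding genes for the wildtype and 4600031 and 3066459 for the mutant. Most counts fell on tRNA genes, with a tRNA share of 55.6% for wildtype replicate 1 and 63.9% for wildtype replicate 2. Mutant replicate 1 had a tRNA share of 60.2% and mutant replicate 2 one of 54.8%. The main fit and its library sizes include these tRNA reads, so its levels are not scaled to mRNA footprints alone. RpS5b itself had 287 and 342 wildtype counts against 10 and 9 mutant counts, and at -6.43 (SE 0.29) on the log2 scale it was lower in the libraries labelled mutant (adjusted p = 2.55e-05 in edgeR). Its paralog RpS5a, outside the rule for named genes and added after its values were seen, had 137 and 180 wildtype counts against 1769 and 726 mutant counts, and at 1.52 (SE 0.26) it was higher (adjusted p = 0.00329 in edgeR). Some cell markers also moved in the same libraries, where 20.9% of all genes tested were called lower and 20.4% higher. All 9 chorion genes, made by follicle cells of the late stages cleared from the control, were lower in the mutant, with summed levels of 7098 and 4802 CPM (counts scaled to library size by TMM) in the wildtype against 1601 and 1124 CPM in the mutant. All 7 follicle cell markers, Yp1 and tj among them, were higher, with sums of 1347 and 832 CPM against 4523 and 3889 CPM. Most of these sums came from the yolk protein genes Yp1, Yp2 and Yp3. Yp1 went from 425 and 250 CPM to 1954 and 1719 CPM, and tj from 78.4 and 71.8 CPM to 159 and 163 CPM. The median log2 fold change of the 7 was 1.10. Of 6 germline markers, 1 (osk) was lower and 5 did not pass, with sums of 417 and 353 CPM against 302 and 342 CPM. Within these sums osk went from 80.98 and 72.53 CPM to 15.95 and 23.07 CPM, and the median log2 fold change of the 6 was 0.0535. Of 8 muscle sheath markers, 2 were higher, close to the share of all genes. The 8 summed to 168 and 117 CPM against 179 and 181 CPM, with a median log2 fold change of 0.50. Within these sums Act57B went from 82.9 and 58.9 CPM to 62.8 and 42.7 CPM and was not called. Fat body markers summed to 20.7 and 16.8 CPM against 44.0 and 39.7 CPM, nearly all of it apolpp, and the larval serum protein genes were at or near 0. The part of these shifts in the results below was not tested, and in whole ovaries fewer cells of a type and less RNA per cell cannot be told apart.

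Of the 48 genes, 33 passed the filter on low counts, and these include every gene with a plain symbol (32) and 1 duplicate, Prosalpha1R. The other 15 are duplicates with few or no footprints and are described further on. Footprints on the subunit genes were lower in the mutant ovaries across all parts of the particle. Of the 33 genes tested, 26 fell, 0 rose and 7 did not pass at an adjusted p under 0.05 (edgeR quasi-likelihood test, Benjamini-Hochberg adjustment over 7784 genes). Over all genes tested, 20.9% were called lower and 20.4% higher, 41.3% in either direction. At an unadjusted p under 0.05, 29 subunit genes were lower and 2 higher, the same reads under 2 names. The share of all genes at that unadjusted threshold was not worked out, so these counts have no background to be read against. DESeq2 called 0 higher. The median log2 fold change of the 33 was -0.53, which is 69.3% of the wildtype level, against 0.031 over all genes tested. Among the 837 genes whose mean CPM lay within the range of the tested subunits, 28.0% were called lower and the median was 0.0085. Of the subunits, only Prosbeta1 was called with at least a halving, a class that held 11.2% of all genes.

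The count of calls changed with single libraries and with scaling, while the median change stayed negative. Leaving out wildtype replicate 1 gave 11 calls, wildtype replicate 2 gave 19, mutant replicate 1 gave 12 and mutant replicate 2 gave 13, where 15.0%, 15.1%, 16.8% and 19.4% of all genes were called lower. The number was 16 in the DESeq2 Wald test, where 14.6% of all genes were called lower, and 9 with scaling by total counts, where 17.5% were. The median log2 fold change stayed between -0.64 and -0.44 in these fits and in all others run. Both ends came from leaving out a wildtype library, at -0.44 without replicate 1 and -0.64 without replicate 2. A set of 9 genes passed in every one of 13 alternatives, namely Prosbeta1, Prosbeta5, Prosalpha2, Prosalpha3, Prosalpha6, Rpt4, Rpt6, Rpn6 and Rpn8. Every other subunit call was lost with scaling by total counts. The DESeq2 Wald test also lost the calls of Prosalpha7, Prosbeta4, Prosbeta6, Prosbeta7, Rpt3, Rpt5, Rpn7, Rpn9, Rpn12 and Rpn13. The losses given for single subunits below are mostly those with 1 library left out and come on top of these. With protein-coding genes only, which leaves the tRNA reads out, 29 subunit genes were called lower, where 25.6% of all genes were. The part of the tRNA reads in the losses with scaling by total counts was not tested. All 26 called genes were negative in each alternative.

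**Figure D1:**
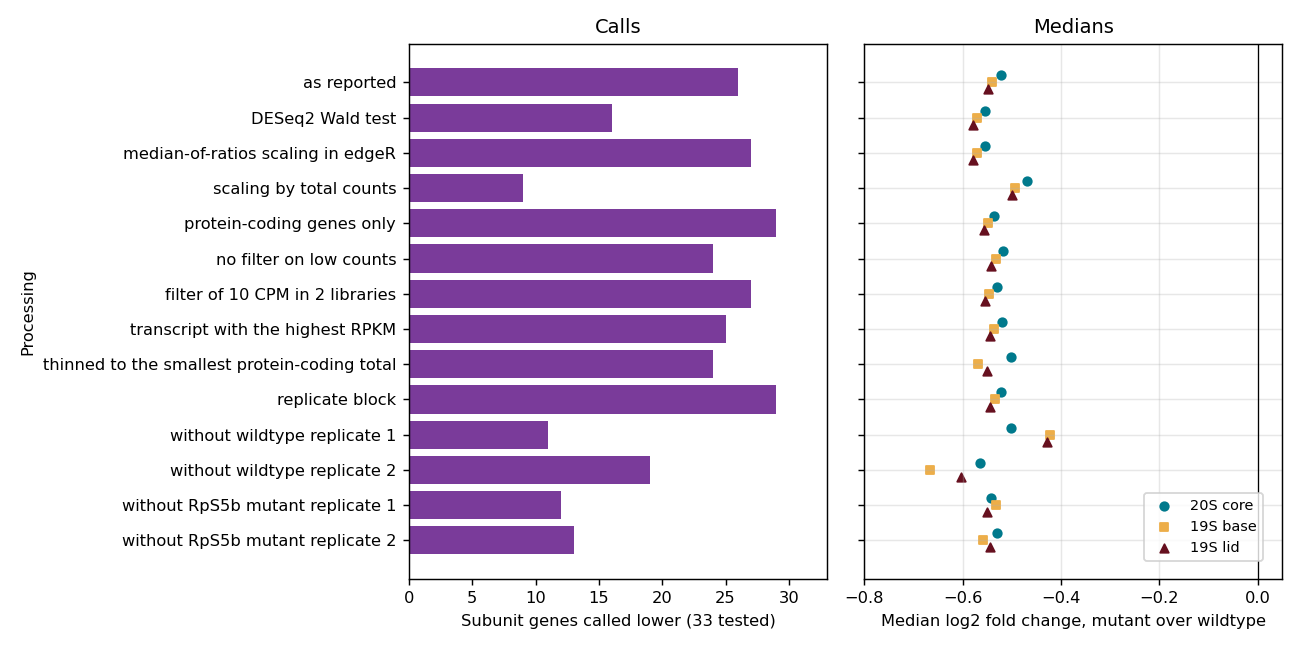
Number of the 33 tested subunit genes called lower (left, bars) and median log2 fold change of the core, base and lid genes (right, points) under the reported processing and each of the 13 alternatives. The calls run from 9 to 29, while every median lies between -0.67 and -0.42.

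**Figure D2:**
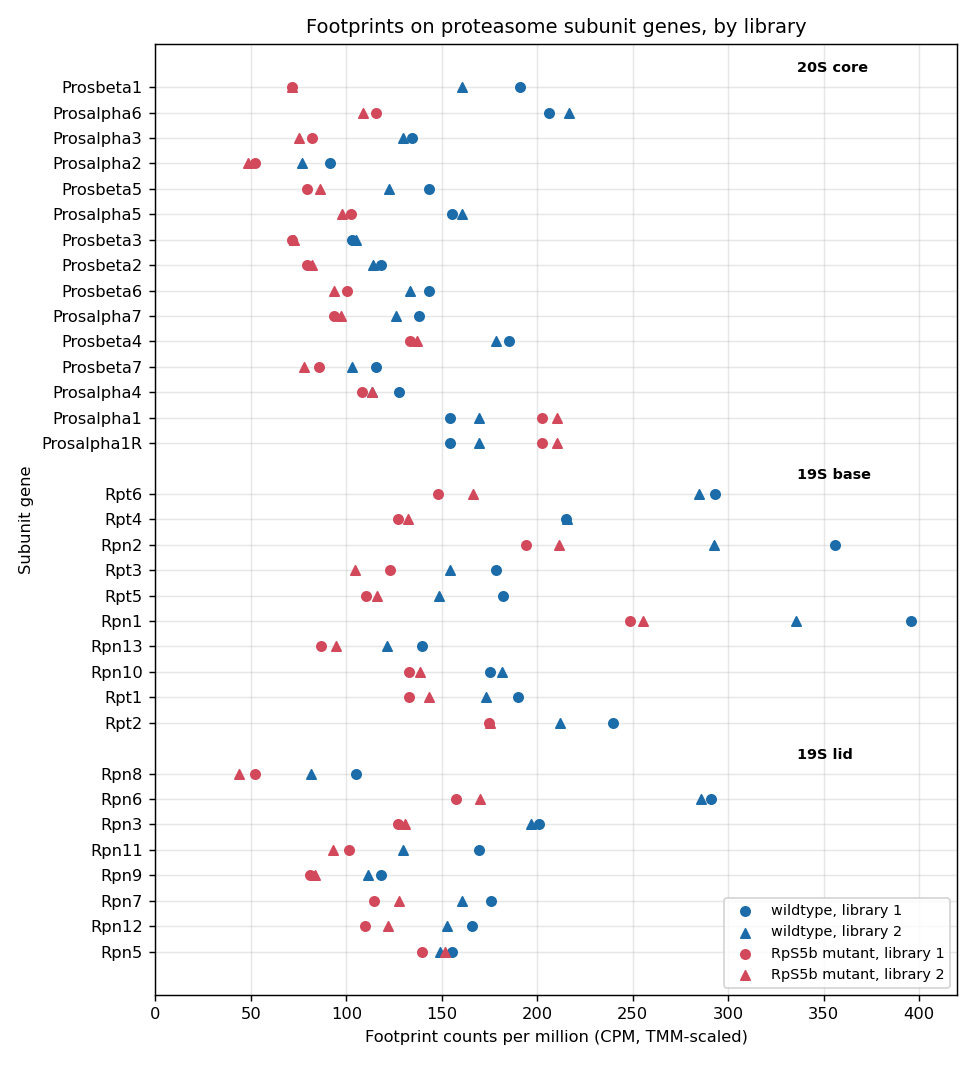
Footprint level of the 33 tested subunit genes in each library (x axis, TMM-scaled CPM; y axis, genes ordered by log2 fold change within a subcomplex; circles, library 1; triangles, library 2). The mutant points lie left of the wildtype points for 30 genes, right of them for Prosalpha1 and Prosalpha1R, and overlap for Rpn5.

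The plot of levels by library shows the 4 values of each gene. Mutant and wildtype CPM did not overlap for 30 of the 33 genes in the lower direction, where 34.3% of all genes did so. They did not overlap in the higher direction for 2, Prosalpha1 and Prosalpha1R, where 37.5% of all genes did so. Only Rpn5 had overlapping groups. Prosalpha4 was separated by less than the printed precision, at 113 CPM in both wildtype replicate 2 and mutant replicate 2. Over the 32 loci left when Prosalpha1 and Prosalpha1R, which hold the same reads, are taken as 1, the median log2 ratio of a mutant to a wildtype library was -0.61 in both ratios to wildtype replicate 1 and -0.48 and -0.47 in the ratios to wildtype replicate 2. The wildtype libraries differed from each other by a median of -0.12 (replicate 2 over 1) and the mutant libraries by 0.047.

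The catalytic sites of the core lie in 3 beta subunits, and all 3 genes fell. Prosbeta1 encodes the subunit with caspase-like activity, and its counted transcript has 3 exons on the minus strand of chromosome 2R, from 16013805 to 16014787 of build BDGP6. It had 191 and 161 CPM in the wildtype libraries versus 71.6 and 71.3 CPM in the mutant libraries. The mutant libraries were nearly equal and both far below the wildtype ones. The change was -1.30 ± 0.15 (log2, SE; edgeR adjusted p = 7.31e-04), or 40.7% of the wildtype level, the lowest of all tested subunits. Prosbeta5, the chymotrypsin-like subunit (2R, 10819978 to 10821178, plus strand), had 143 and 122 CPM in the wildtype and 79.2 and 86.1 CPM in the mutant, a change of -0.68 ± 0.15 (log2, SE; edgeR adjusted p = 0.00928). Prosbeta2, the trypsin-like subunit (3L, 14999951 to 15001319, plus strand), had 118 and 114 CPM in the wildtype and 79.5 and 82.1 CPM in the mutant, a change of -0.52 ± 0.13 (log2, SE; edgeR adjusted p = 0.0173). The call of Prosbeta2 was lost without wildtype replicate 1 (edgeR adjusted p = 0.0604), mutant replicate 1 (0.0839) or mutant replicate 2 (0.0569). The change of Prosbeta1 was the most negative of the catalytic genes, and the difference between it and the other catalytic genes was not tested.

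The beta subunits without catalytic activity form the rest of the inner rings, and all 4 fell. Prosbeta3 was at -0.53 (SE 0.13) on the log2 scale, Prosbeta6 at -0.51 (SE 0.14), Prosbeta4 at -0.43 (SE 0.14) and Prosbeta7 at -0.42 (SE 0.14), with edgeR adjusted p between 0.0152 for Prosbeta3 and 0.0496 for Prosbeta7. The call of Prosbeta4 and that of Prosbeta7 were lost with any 1 library left out. That of Prosbeta3 was lost without wildtype replicate 2 (0.0503), mutant replicate 1 (0.0705) or mutant replicate 2 (0.0563), and that of Prosbeta6 without wildtype replicate 1 (0.0898), mutant replicate 1 (0.0622) or mutant replicate 2 (0.119). The beta ring as a whole had 7 of 7 genes called lower and a median log2 fold change of -0.52.

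The alpha subunits, which form the outer rings and the gate, were less uniform. Of 8 tested alpha genes, 5 fell and 3 did not pass, and their log2 fold changes ran from -0.91 to 0.35. Prosalpha6 (2L, 10221351 to 10222546, plus strand) had 206 and 216 CPM in the wildtype and 116 and 109 CPM in the mutant. Its change was -0.91 ± 0.15 (log2, SE; edgeR adjusted p = 0.00248). Prosalpha3 (2R, 20994900 to 20996118, plus strand) had 134 and 130 CPM against 82.2 and 75.4 CPM, a change of -0.74 ± 0.14 (log2, SE; edgeR adjusted p = 0.00454). Both genes had wildtype libraries close together and well above the mutant ones. Prosalpha2 was at -0.74 (SE 0.15), Prosalpha5 at -0.66 (SE 0.14) and Prosalpha7 at -0.47 (SE 0.14), and all 3 were called lower. The call of Prosalpha7 was lost with any 1 library left out, and that of Prosalpha5 only with scaling by total counts (edgeR adjusted p = 0.0625).

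Prosalpha4 and the Prosalpha1 pair did not fall with the others. Prosalpha4 (X, 16276270 to 16277587, plus strand) had 128 and 113 CPM in the wildtype and 108 and 113 CPM in the mutant, a change of -0.12 ± 0.14 (log2, SE; edgeR adjusted p = 0.543). Prosalpha1 (2R, 7827303 to 7828678, minus strand) had 154 and 170 CPM in the wildtype and 202 and 210 CPM in the mutant. Both mutant libraries were above both wildtype libraries, but the log2 fold change of 0.35 (SE 0.15) did not pass (edgeR adjusted p = 0.0981). It passed, as higher, with the replicate number as a block or with protein-coding genes only, and its adjusted p over the 13 alternatives ran from 0.0381 to 0.329. Prosalpha1R (2R, 7830413 to 7831771, minus strand) lies 1734 nt from Prosalpha1 and had identical counts in each library, 476 and 919 for the wildtype against 2603 and 1834 for the mutant. With equal counts in every library the values cannot be assigned to either gene, and the pair is 1 measurement under 2 names. Counts of tested genes include both names, and with the pair as 1 locus 5 of 7 alpha loci and 26 of 32 subunit loci were called lower.

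**Figure D3:**
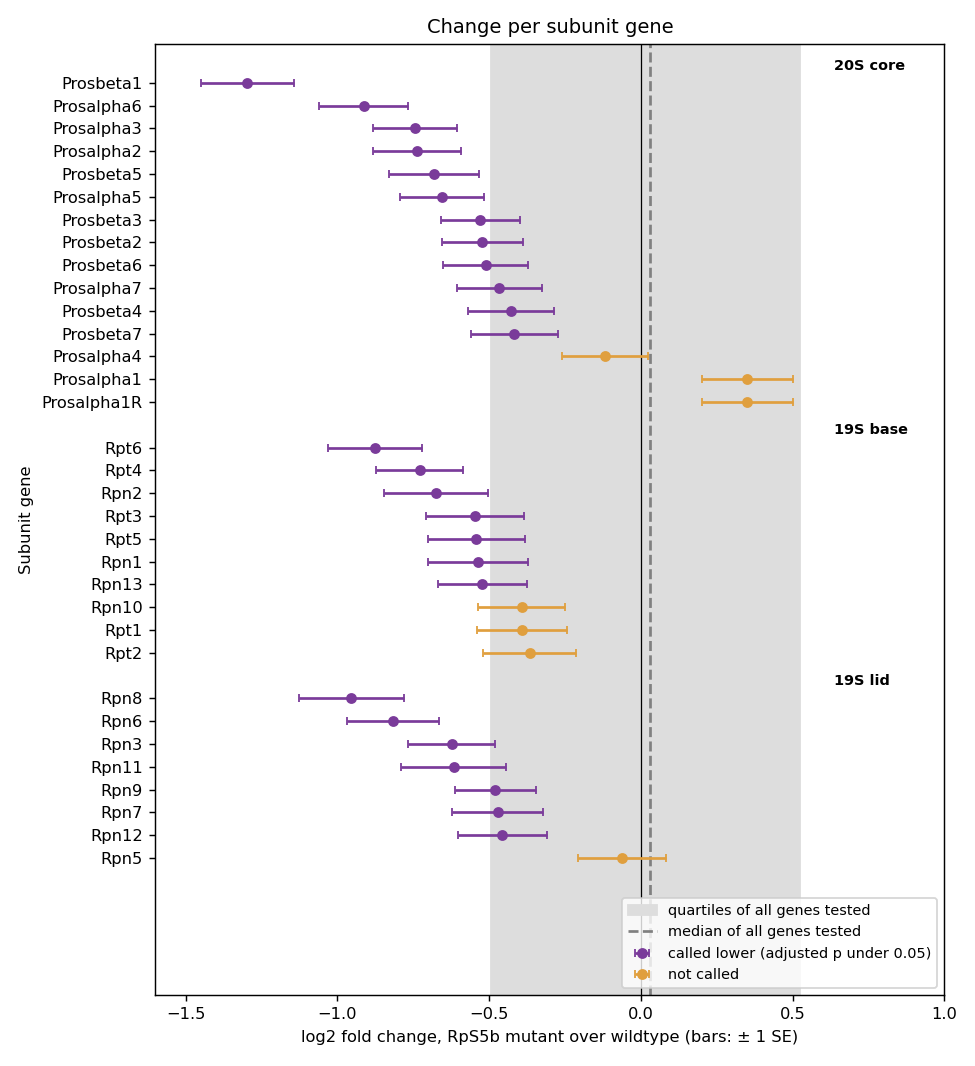
Log2 fold change of each tested subunit gene, mutant over wildtype (points; bars are ± 1 SE; purple, called lower; orange, not called), with the quartiles (-0.49 and 0.53, grey band) and median (dashed line) of all 7784 genes tested. Points of the core reach from -1.30 to 0.35, those of the base from -0.88 to -0.37 and those of the lid from -0.95 to -0.062.

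In the base, the Rpt genes encode the ATPase ring and the Rpn genes its scaffold and ubiquitin receptors. Of 10 base genes tested, 7 fell and 3 did not pass, with a median of -0.54, and all 10 had mutant levels below the wildtype levels in every library. Rpt6 (X, 21316052 to 21317663, plus strand) had 293 and 285 CPM in the wildtype and 148 and 166 CPM in the mutant. Its change was -0.88 ± 0.15 (log2, SE; edgeR adjusted p = 0.00377). Rpt4 (X, 6289470 to 6291245, minus strand) had 215 and 216 CPM against 127 and 132 CPM, a change of -0.73 ± 0.14 (log2, SE; edgeR adjusted p = 0.00612). These ATPase genes kept their calls in all 13 alternatives. Rpt3 was at -0.55 (SE 0.16) and Rpt5 at -0.54 (SE 0.16), both called lower. The call of Rpt3 was lost without wildtype replicate 1 (edgeR adjusted p = 0.133) or mutant replicate 2 (0.155), and that of Rpt5 without wildtype replicate 1 (0.147), mutant replicate 1 (0.107) or mutant replicate 2 (0.0511).

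The remaining ATPase genes did not pass. Rpt1 (2R, 7652440 to 7653954, minus strand) had 190 and 173 CPM in the wildtype and 133 and 143 CPM in the mutant, a change of -0.39 ± 0.15 (log2, SE; edgeR adjusted p = 0.0690). Rpt2 (3R, 23929873 to 23931558, minus strand) had 240 and 212 CPM against 175 and 175 CPM, a change of -0.37 ± 0.15 (log2, SE; edgeR adjusted p = 0.0909). In both genes the groups did not overlap, and both passed as lower with the replicate number as a block or with protein-coding genes only.

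Among the non-ATPase genes of the base, Rpn1 and Rpn2 encode large scaffold proteins and had the highest CPM of the family in the wildtype, a scale on which long genes collect more counts. In the mutant Rpn1 was again first by mean CPM, and Rpn2 came after Prosalpha1. Rpn2 (3R, 29153524 to 29157255, plus strand) had 356 and 292 CPM in the wildtype and 194 and 212 CPM in the mutant. Its change was -0.68 ± 0.17 (log2, SE; edgeR adjusted p = 0.0168), and the call was lost without wildtype replicate 1 (0.0924) or mutant replicate 1 (0.0835). Rpn1 was at -0.54 (SE 0.17) and Rpn13, a ubiquitin receptor, at -0.52 (SE 0.15), both called lower. Without wildtype replicate 1 or mutant replicate 1 neither passed, at edgeR adjusted p between 0.111 and 0.167, and Rpn1 also failed without mutant replicate 2 (0.116). Rpn10, the other ubiquitin receptor, which sits between base and lid and is counted here with the base (3L, 21537000 to 21538582, plus strand), had 175 and 181 CPM against 133 and 139 CPM. Its log2 fold change of -0.39 (SE 0.14) did not pass (edgeR adjusted p = 0.0607), and the adjusted p over the 13 alternatives ran from 0.0122 to 0.333. It passed as lower in 4 of them, with the replicate number as a block (0.0202), protein-coding genes only (0.0122), median-of-ratios scaling (0.0476) or the filter of 10 CPM (0.0450).

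In the lid, 7 of 8 genes fell and 1 did not pass, with a median log2 fold change of -0.55. Rpn11 encodes the metalloprotease that cuts ubiquitin from substrates, and Rpn8 its inactive partner. Rpn8 (2R, 24403005 to 24404527, plus strand) had 105 and 81.4 CPM in the wildtype and 52.0 and 43.7 CPM in the mutant. With a change of -0.95 ± 0.17 (log2, SE; edgeR adjusted p = 0.00408) it was the lowest of the lid. Rpn11 was at -0.62 (SE 0.17, edgeR adjusted p = 0.0247), a call lost without wildtype replicate 1 (0.121) or mutant replicate 2 (0.0593).

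The other lid genes encode scaffold proteins. Rpn6, whose product clamps the lid to the core, had 291 and 286 CPM in the wildtype and 158 and 170 CPM in the mutant (2R, 14750166 to 14752271, minus strand). The change was -0.82 ± 0.15 (log2, SE; edgeR adjusted p = 0.00447), and the call held in all alternatives. Rpn3 (2L, 19051790 to 19053681, plus strand) had 201 and 197 CPM against 127 and 131 CPM, a change of -0.62 ± 0.14 (log2, SE; edgeR adjusted p = 0.0114), a call lost without wildtype replicate 1 (0.0505) or mutant replicate 1 (0.0569). Rpn7 (3R, 22460662 to 22462054, minus strand) had 176 and 160 CPM against 114 and 128 CPM, a change of -0.47 ± 0.15 (log2, SE; edgeR adjusted p = 0.0389). Rpn12 (3L, 16583028 to 16584022, plus strand) had 166 and 153 CPM against 110 and 122 CPM, a change of -0.46 ± 0.15 (log2, SE; edgeR adjusted p = 0.0414). Rpn9 was at -0.48 (SE 0.13). The calls of Rpn7, Rpn9 and Rpn12 were lost with any 1 library left out, at edgeR adjusted p between 0.0517 and 0.192.

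Rpn5 stood apart from the rest of the lid. The gene (3R, 5789493 to 5791569, plus strand) had 155 and 149 CPM in the wildtype and 140 and 152 CPM in the mutant, so its groups overlapped. The change was -0.062 ± 0.14 (log2, SE; edgeR adjusted p = 0.761), and it passed in none of the 13 alternatives, where the adjusted p lay between 0.636 and 0.986.

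The core had 12 of 15 genes called lower, the base 7 of 10 and the lid 7 of 8, where 20.9% of all genes tested were. Among genes with a mean CPM within the range of the subunits that share was 28.0%. The medians of the core, base and lid were -0.52, -0.54 and -0.55. The quartiles of the log2 fold change were -0.71 and -0.42 in the core, -0.64 and -0.43 in the base and -0.67 and -0.47 in the lid. With the Prosalpha1 pair as 1 locus, the core had 12 of 14 called lower, a median of -0.53 and quartiles of -0.72 and -0.44. No test between the subcomplexes was made, since subunits are not replicates. Without wildtype replicate 1 the order of the medians changed, to -0.50 in the core, -0.42 in the base and -0.43 in the lid. Without wildtype replicate 2 the medians were -0.56, -0.67 and -0.60. Without mutant replicate 1 they were -0.54, -0.53 and -0.55, and without mutant replicate 2 they were -0.53, -0.56 and -0.54. Fewer core and lid genes were called in each of these fits, and fewer base genes in all but the fit without wildtype replicate 2.

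The subunits were compared with the family's median log2 fold change, which is taken from the same 32 loci. Of these, 25 were within 2 SE of it and 20 within 1 SE. Prosalpha1 lay 5.9 SE and Prosbeta1 5.0 SE from it, and whether the loci share a single shift was not tested. The 7 loci beyond 2 SE were Prosalpha1, Rpn5 and Prosalpha4 above the median and Prosbeta1, Prosalpha6, Rpn8 and Rpt6 below it. These 7 include members of all 3 subcomplexes.

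**Figure D4:**
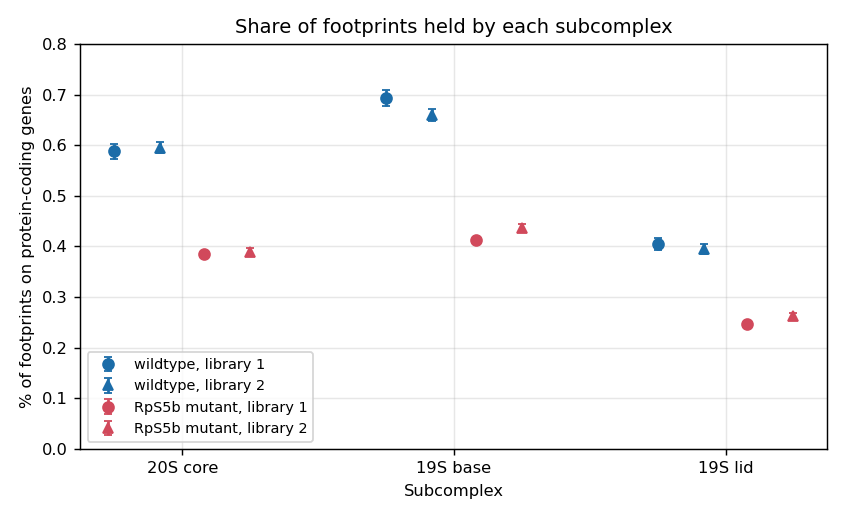
Share of all footprints on protein-coding genes held by the core, base and lid genes in each library (y axis, percent; bars, 95% Wilson intervals of the counts; Prosalpha1R left out). The mutant libraries lie between 0.385% and 0.390% for the core, 0.413% and 0.437% for the base and 0.247% and 0.262% for the lid, all below the wildtype libraries.

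Summed over the 32 loci, the subunits took a smaller part of all coding footprints in the mutant. Their share was 1.69% (95% Wilson interval 1.66 to 1.71) and 1.65% (1.63 to 1.67) for the wildtype, against 1.04% (1.04 to 1.05) and 1.09% (1.08 to 1.10) for the mutant. These intervals treat each read as an independent draw and leave out differences between libraries of a group. Repeated reads of 1 fragment cannot be told apart, so the intervals may be too narrow even for counting error. The wildtype libraries were close together and both lay above both mutant libraries. The mean share was 1.67% ± 0.025 (SD, n = 2) in the wildtype and 1.07% ± 0.031 (SD, n = 2) in the mutant, a ratio of 0.640. The ratio is taken over coding footprints alone and without TMM scaling. With 2 libraries a group the smallest two-sided p of an exact permutation test is 0.333, and none is given.

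The division of the subunits' own footprints between the subcomplexes was nearly constant. The core held 34.9% and 36.1% of them for the wildtype against 36.8% and 35.8% for the mutant. The base held 41.1% and 40.0% against 39.5% and 40.1%, and the lid 24.0% and 23.9% against 23.6% and 24.1%. The ranges of the groups overlapped for the core, the base and the lid. Within the core, the beta ring held 17.4% and 17.3% against 16.6% and 16.2%, and the alpha ring 17.5% and 18.8% against 20.2% and 19.6%. The alpha ring includes the Prosalpha1 locus, the one locus with a higher level in the mutant. As shares of coding footprints, the ratio of mutant to wildtype was 0.703 for the alpha ring, 0.604 for the beta ring, 0.621 for the ATPase ring and 0.637 for the non-ATPase base.

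Levels were compared between subunits as footprint density, the CPM over protein-coding counts alone per kilobase of transcript. Density is computed over whole transcripts, so a gene with long untranslated regions has a lower value than its coding sequence alone would give. In the wildtype, the density of the 32 loci ran over a 3.15-fold range in replicate 1 and a 3.91-fold range in replicate 2. Prosbeta4 was the densest, at 666 and 682, and Rpn8 the least dense, at 211 and 174. In the mutant the range was 5.86-fold and 7.23-fold, from Prosalpha1 at 584 and 617 down to Rpn8 at 99.7 and 85.3. Both ends moved, with Prosalpha1, whose reads may come from 2 gene copies, higher and Rpn8 lower in the mutant.

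The order of the subunits was largely kept. Across the 32 loci the log2 densities of wildtype and mutant means had a Pearson r of 0.80 and a Spearman rho of 0.86, a description over loci that share libraries and transcript lengths. Prosbeta1 ranked 2 in the wildtype, at 657 and 588, and 16 in the mutant, at 235 and 238. Prosalpha4 moved from rank 24 to 11, Rpn5 from 31 to 22 and Prosalpha1 from 6 to 1. Rpn8 held the last rank in both groups. The standard deviation of log2 density between loci was 0.41 and 0.47 in the wildtype libraries versus 0.46 and 0.50 in the mutant, so the groups overlapped. Log2 fold change was nearly unrelated to transcript length (Pearson r 0.0010, n = 32 loci) and weakly to wildtype density (Pearson r -0.18). The wildtype counts enter both the fold change and the wildtype density, so the latter correlation is not between independent measurements.

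**Figure D5:**
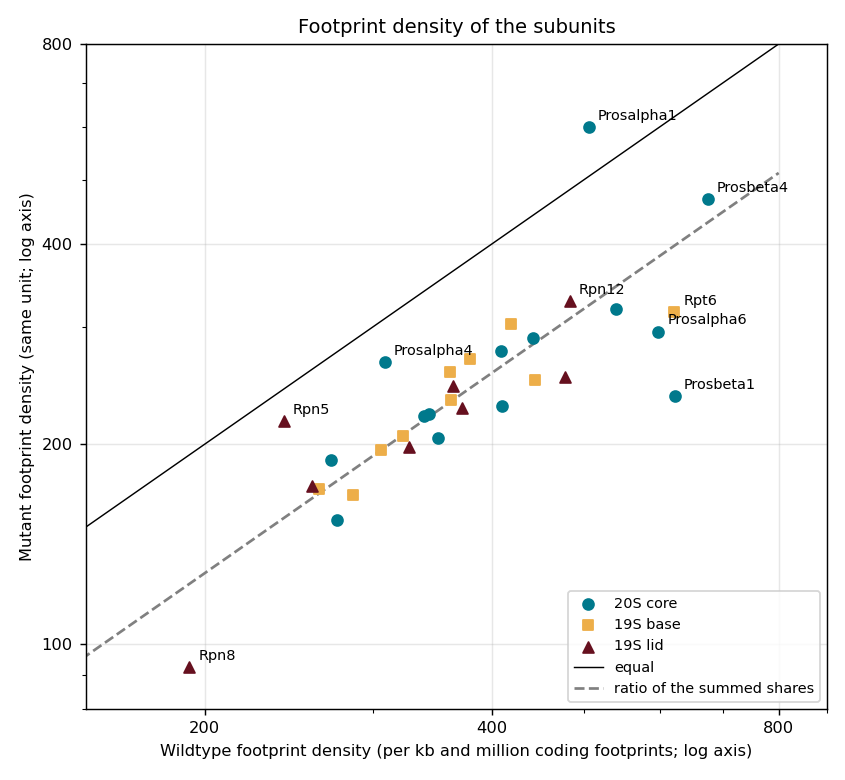
Mean footprint density of the 32 subunit loci in the wildtype (x axis) and mutant (y axis) libraries, both on log axes, in CPM of coding footprints per kilobase of transcript. Most loci lie along the dashed line that marks the ratio of the summed shares, 0.640, while Prosalpha1 lies above the line of equal density and Prosbeta1, at 622 in the wildtype and 236 in the mutant, lies far below the dashed line.

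The 16 duplicate genes carry a symbol with R or T after the number of the gene they resemble, and several are known from fly testis, where they replace the common subunit. They were nearly silent in these ovaries, apart from the Prosalpha1R counts described above. Of the 16, 10 had 0 counts in all 4 libraries, and 4 (Prosalpha4T1, Prosbeta2R2, Rpn12R and Rpt6R) had 1 or 2 counts in all. For Prosalpha6T, a count of 0, with 3 counts as its limit in each library, allows up to 0.471% and 0.256% of the Prosalpha6 counts of the wildtype, against 0.202% and 0.316% for the mutant. Over the duplicates at 0, that limit was at most 0.822% of the plain gene's counts in any library, reached by Prosbeta2R1. Testis markers summed to 10.4 and 9.23 CPM in the wildtype and to less in each mutant library, with betaTub85D called lower. In the other direction, bol had 1.62 and 2.77 CPM in the wildtype against 2.96 and 2.99 CPM in the mutant. Its log2 fold change of 0.35 (SE 0.35) did not pass (edgeR adjusted p = 0.465). Mst84Da, dj and Mst98Ca were at 0 in every library, and Mst87F, aly and topi at 0 in both wildtype libraries.

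Rpt3R was the only duplicate with at least 10 counts in a library that differed from those of its plain gene. It lies on 3R, from 9754735 to 9756214 on the minus strand, while Rpt3 lies on X. Its counts were 2 and 2 for the wildtype against 14 and 15 for the mutant, or 0.648 and 0.369 CPM against 1.09 and 1.72 CPM. As a share of the Rpt3 counts this was 0.289% summed over the wildtype libraries and 1.17% over the mutant libraries. Rpt3R was removed by the filter on low counts, and without that filter its log2 fold change of 1.50 (SE 0.84) did not pass (edgeR adjusted p = 0.166). It also entered 3 of the fits with 1 library left out, at edgeR adjusted p between 0.0788 and 0.455.

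The genes lie on 5 chromosome arms with no single cluster. Of the tested genes, 11 lie on 2R, 9 on 3R, 5 on 3L, 4 on 2L and 4 on X, and 8, 7, 4, 4 and 3 of them were called lower. The closest tested neighbours other than the Prosalpha1 pair were Rpn9 and Rpt5, 19.9 kb apart on 3R, at -0.48 and -0.54, and Rpn12 and Prosbeta6, 25.4 kb apart on 3L, at -0.46 and -0.51. No promoter or protein sequences were used here.

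Among genes whose products assemble or accompany the proteasome, those that were called were lower in the mutant. Of 9 such genes tested, 5 fell, 0 rose and 4 did not pass, with a median log2 fold change of -0.47, against 20.9% of all genes called lower. Uch-L5, the deubiquitinase that docks on Rpn13, had 95.2 and 85.6 CPM in the wildtype and 59.0 and 55.9 CPM in the mutant. Its change was -0.65 ± 0.14 (log2, SE; edgeR adjusted p = 0.00755), and it was called in every alternative. Usp14, the deubiquitinase that docks on Rpn1, was at -0.54 (SE 0.14), a call lost without wildtype replicate 1 (edgeR adjusted p = 0.0551) or mutant replicate 1 (0.0954). CG8858, the fly relative of the yeast proteasome scaffold Ecm29, had 105 and 105 CPM against 61.0 and 69.9 CPM, was at -0.68 (SE 0.14) and kept its call in all alternatives. Sem1, a small subunit of the lid outside the symbol rule, had 35.3 and 37.8 CPM against 27.3 and 25.7 CPM, a change of -0.47 ± 0.13 (log2, SE; edgeR adjusted p = 0.0247). PI31, a proteasome-binding regulator, was at -0.53 (SE 0.14). Calls of Sem1 and PI31 were lost in 6 alternatives each, those without wildtype replicate 2 (0.0900 and 0.0619) or mutant replicate 2 (0.127 and 0.138) among them, with Sem1 lost also without mutant replicate 1 (0.0521) and PI31 without wildtype replicate 1 (0.0707). The core maturation factor Pomp was at -0.18 (SE 0.13, edgeR adjusted p = 0.302). Neither ntc, at -0.37 (SE 0.45), nor CG12096, at -0.33 (SE 0.19), passed. REG, the fly PA28-type activator of the core, was at 0.51 (SE 0.21, edgeR adjusted p = 0.0831), with 53.8 and 44.7 CPM in the wildtype and 82.9 and 56.5 CPM in the mutant, and it passed as higher in 4 of 13 alternatives, one of them the fit without mutant replicate 2. For this list, 1 gene was higher at an unadjusted p under 0.05, with no share of all genes worked out for that threshold. DESeq2 called 3 lower and 0 higher. With scaling by total counts, 2 were called lower and 0 higher, where 17.5% of all genes were called lower. Usp14, Sem1 and PI31 lost their calls there.

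Genes that supply ubiquitin and deliver substrates included calls in both directions. Of 11 tested, 5 fell, 2 rose and 4 did not pass, with a median of -0.23, where 20.9% of all genes were called lower and 20.4% higher. The 2 that rose are close to the share of all genes. TER94, the p97 ATPase that extracts ubiquitinated proteins, had 926 and 768 CPM in the wildtype and 549 and 503 CPM in the mutant, a change of -0.69 ± 0.19 (log2, SE; edgeR adjusted p = 0.0240). Its cofactor genes Npl4 and p47 were at -0.62 (SE 0.14) and -0.79 (SE 0.18), the p97-binding gene Plap at -0.50 (SE 0.17) and Uba1, the ubiquitin-activating enzyme, at -0.61 (SE 0.19), all called lower. The shuttle factor genes Rad23 and Ubqn rose, by 0.49 (SE 0.14) and 0.43 (SE 0.13) on the log2 scale. Rad23 had 36.6 and 44.3 CPM against 56.4 and 58.2 CPM, and Ubqn 59.9 and 60.4 CPM against 81.9 and 80.5 CPM. DESeq2 called 4 lower and 0 higher. With scaling by total counts, 1 was called lower and 0 higher, where 17.5% of all genes were called lower. None of these 7 calls held with each library left out in turn. Without wildtype replicate 1 only Npl4 was called lower and 0 rose, without mutant replicate 1 only p47 was and 0 rose, without mutant replicate 2 there were 3 lower and 0 higher, and without wildtype replicate 2, 5 lower and 1 higher. The polyubiquitin genes Ubi-p63E and Ubi-p5E, at -0.23 and -0.17, and Ufd1 and Ufd4 did not pass.

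The known regulators of proteasome gene expression showed no called change. In animals the transcription factor of the Nrf family raises proteasome gene expression when proteasome activity is low, and cnc is its fly gene. cnc had 64.1 and 72.0 CPM in the wildtype and 73.6 and 74.4 CPM in the mutant, a change of 0.12 ± 0.13 (log2, SE; edgeR adjusted p = 0.521). Its partner maf-S was at -0.39 (SE 0.15, edgeR adjusted p = 0.0657) and passed as lower in 3 of 13 alternatives. Keap1, which holds the cnc product in check, was at 0.54 (SE 0.29, edgeR adjusted p = 0.177), and Pngl and rngo, fly relatives of the enzymes that process the factor in other animals, were at 0.31 and 0.052. Of these 5 genes, 0 passed in edgeR, where 41.3% of all genes were called in either direction, and 0 passed in DESeq2. At an unadjusted p under 0.05 in edgeR, 1 was lower and 0 were higher. The share of all genes at that threshold was not worked out.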

How the data were processed

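The authors deposited 1 table per library with a count, an RPKM value, a coverage signal per nucleotide and a length for 34729 transcripts. Per the file headers, reads of 25 to 100 nt were assigned at an offset of 12 nt from the 5' end and counted in whole transcripts without a mask. Fragments of 28 to 34 nt had been selected, per the labels' protocols. The submitters' processing notes list DESeq2, bedtools 2.26.0, Bowtie 1.0.0, SAMtools 0.1.19, TopHat2 2.1.2 and build BDGP6, and their roles are not given in the sources used here. The deposited RPKM is the count per kilobase scaled to the reads of the library, and the deposited signal is the count divided by the length. Only counts were tested.

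Transcripts were tied to gene symbols of a RefSeq Release 6 table by coordinates (34675 of 34729, 99.84%), and the transcript with the highest mean count stands for its gene. The 54 unnamed transcripts held under 0.001% of reads and were left out. Genes were filtered with filterByExpr, scaled by TMM and tested with edgeR 4.0.16 (R 4.3.3; quasi-likelihood test, genotype as the only term, all 4 libraries). An SE was obtained by dividing the size of a log2 change by the root of its F value. Alternatives were DESeq2 1.42.0, other scalings and filters, another transcript choice, 1 draw of counts thinned to 1053514 coding footprints per library, the replicate number as a block, and each library left out. The functions were tested on simulated counts.

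The members, lists and naming rule were chosen with earlier results of these data known. The naming rule took the catalytic beta subunits, the 3 lowest and 3 highest log2 fold changes of each subcomplex, duplicates with at least 10 counts in a library, and the companion genes that were called. Companion genes that were not called, such as Pomp, REG and cnc, are named beyond this rule. CG13623 stood on the list of accessory genes by mistake (RefSeq gives it as IscA2) and was left out without its value being looked at. One germline marker was not found in the table. Library totals, per the file headers, were 3122299 and 6170623 reads for the wildtype against 13942184 and 8714570 for the mutant. Whether the libraries of a genotype are from different animals is not labelled, so the p-values measure only how far these libraries differ, and that spread could be technical.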

Additional observations from a re-analysis of the deposited data

How the results depend on the processing

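Directions were stable while counts of calls were not. Of the 26 subunit genes called lower, 9 kept the call in all 13 alternatives and none changed sign. The DESeq2 Wald test called 16 subunit genes lower, 4 of them in the base and 4 in the lid, and 848 genes higher in all. Scaling by total counts called 9 lower, with 5 in the core, 2 in the base and 2 in the lid. With protein-coding genes only, and with the replicate number as a block, 29 genes were called lower and 2 higher, the shared reads of Prosalpha1 and Prosalpha1R. Of all genes, 25.6% were called lower with protein-coding genes only and 24.4% with the block. In these fits 1715 and 1938 of all genes were called higher. Same-numbered libraries had deviations from their group means that correlated at 0.246, but no label ties the numbers to a batch, so no pairing was assumed. With 1 library left out, the genes called lower numbered 11 to 19, with 6 to 8 in the core, 2 to 7 in the base and 2 to 4 in the lid, and over all genes 1034 to 1413 were called higher. The subunit medians then ran from -0.64 to -0.44, with -0.56 to -0.50 in the core, -0.67 to -0.42 in the base and -0.60 to -0.43 in the lid. The cause of these losses was not tested, and leaving a library out also lowers the number of libraries. A group left with 1 library is assumed to vary like the other. Thinning to equal coding depth left 24 calls, where 19.1% of all genes were called lower. The alternative that takes density over the coding length was not run, since no protein or coding lengths were used here.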
